A study of Mus musculus with 2 samples.

Results

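The NFAT and calcineurin genes examined here are 10 genes, taken by symbol from the 54532 gene rows of the deposited count matrix. They are the transcription factor genes Nfatc1, Nfatc2, Nfatc3 and Nfat5, the calcineurin catalytic subunit genes Ppp3ca, Ppp3cb and Ppp3cc, the regulatory subunit gene Ppp3r1, and the calcineurin inhibitor genes Rcan1 and Cabin1. Each symbol had 1 row, and all 10 genes had enough counts to be measured, which required the counts of both libraries to sum to at least 20. The libraries came from CD4-positive T cells of the BDC-2.5 line. These carry a transgenic T cell receptor that recognises an antigen of pancreatic beta cells, and had been activated before transfer into NOD.scid mice. That strain lacks B and T lymphocytes. One group of recipients was given 1.75 mg of 2.5HIP-PLG intravenously 1 day after the transfer, a nanoparticle of the polymer PLG that carries a hybrid insulin peptide, and the other group was left untreated. Effector cells negative for a green fluorescent reporter of Foxp3 were sorted on day 6 after the transfer from lymph nodes and spleen, and the cells of 4 mice were pooled into the 1 library of each group. The age of the mice is not given in the sources used here, and recipients of an empty particle were not analysed here.

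When a T cell receptor is engaged, calcium enters the cell and binds calmodulin, which activates the phosphatase calcineurin. Calcineurin removes phosphates from the NFAT proteins encoded by Nfatc1, Nfatc2 and Nfatc3, and these then move into the nucleus and bind DNA at sites with a GGAAA core. With the AP-1 factors they drive cytokine genes, and without AP-1 they have been linked to the gene programmes of anergy and exhaustion. NFAT5 differs from the others in that it answers to osmotic stress and not to calcineurin.

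Nfatc1 was the one gene of the 10 that differed by more than 1.5-fold between the libraries, and it was 2.04-fold higher after 2.5HIP-PLG. The other 3 NFAT genes were 0.810 to 0.949 times the untreated level, so the make-up of the NFAT transcripts differed more than their sum did. The calcineurin subunit genes all differed by less than 1.2-fold, with Ppp3ca on the lower side and Ppp3cb and Ppp3r1 on the higher side. Rcan1, a gene that calcineurin and NFAT are known to switch on, was scarce in both libraries and did not differ beyond counting error.

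With 1 library per group there is no replicate check and so no p-value. The ratios given are the count in the 2.5HIP-PLG library over that in the untreated library, each divided first by its library total, with an exact 95% interval for counting error only. A gene was called higher or lower at a ratio of at least 1.5 in that direction with an interval that left out 1. By this rule 1 of the 10 genes was higher, 0 were lower and 9 were neither. Over all 13902 measured genes, 5.15% were higher, 9.7% were lower and 14.8% were called in either direction, so the number called among the 10 genes was near that background. The median log2 ratio was -0.05 over the 10 genes and -0.01 over all measured genes.

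The gene counts summed to 22580671 and 26036666 in the 2.5HIP-PLG and untreated libraries. The 9 marker genes of CD4 T cells, among them Cd3e and Cd4, summed to 7230 and 5862 CPM (counts per 1000000 of the library total), and none of them was called. Their sum had a ratio of 1.23. At a threshold of 1.2-fold 8 of the 9 were higher, against 12.7% of all measured genes. Marker sums of 9 other cell types lay between 4.65 and 130.2 CPM after 2.5HIP-PLG and between 3.61 and 101.1 without it. The 5 neutrophil genes were higher in sum after 2.5HIP-PLG (13.4 and 3.61 CPM, 2 of 3 measured genes higher). Most of that sum was Mpo (237 and 57 counts), and Ly6g was not called (14 and 11). S100a8 (10 and 8) and S100a9 (10 and 9) had too few counts to be measured. The 5 mast cell and basophil genes were also higher in sum (17.0 and 3.76 CPM, 3 of 4 higher). In the macrophage and monocyte list 3 of 7 genes were higher and 4 neither, with sums of 24.3 and 22.4 CPM. Its most counted gene, Itgam, was among the 4 (219 and 325 counts, 0.777, 0.652 to 0.925). In the stromal and endothelial list 2 of 4 measured genes were higher, Col1a1 (39 and 14 counts) and Cdh5 (17 and 7). Most of that list's sum was Pecam1, which was neither (2850 and 2573 counts). Of 5 measured dendritic cell genes 1 was lower, and of 4 NK cell genes 1 was higher and 2 lower. At 1.2-fold the dendritic cell list had 0 higher and 3 lower, and the NK cell list 1 higher and 3 lower. By that rule 17.5% of all measured genes were lower. The macrophage list then had 3 higher and 1 lower, and the stromal list 3 higher and 0 lower. The B cell genes summed to 4.65 and 7.22 CPM, with Blk alone measured (97 and 166 counts, 0.674, 0.519 to 0.871). Ms4a1 had 0 counts in both libraries. Library make-up moved as well, since mitochondrially encoded genes took 2.75% and 2.29% of counts, the ribosomal RNA gene CT010467.1 took 0.202% and 1.06%, and 4 Y-linked genes together were 4.45-fold lower after 2.5HIP-PLG. The part of these in the results was not tested, although with mitochondrial genes and CT010467.1 left out of the totals the ratio of Nfatc1 was 2.03. In pooled sorted cells, more cells with a transcript and more transcript per cell cannot be told apart.

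Promoter windows of RefSeq on GRCm38.p6 were matched for 7 of the 10 genes, 10 windows in all. No window was matched for Nfatc1, Ppp3ca or Ppp3cc, so the promoter of Nfatc1 was not examined. Those of Rcan1 and Nfatc2 are shown, the first as a textbook example of a target of NFAT and the second as Nfatc2 had the lowest ratio of the 10 genes. Both genes have 2 windows, as has Nfatc3, whose windows held 1 and 0 GGAAA cores and are not shown. Each is the 250 bases before the start site, read 5′ to 3′ on the gene's strand, which is the minus strand for both genes. Capitals mark the NFAT core GGAAA, the AP-1 motif TGANTCA and the cyclic AMP response element TGACGTCA, searched on both strands, so that GGAAA also appears as TTTCC.
Rcan1 inner start, chr16:92400079-92400328: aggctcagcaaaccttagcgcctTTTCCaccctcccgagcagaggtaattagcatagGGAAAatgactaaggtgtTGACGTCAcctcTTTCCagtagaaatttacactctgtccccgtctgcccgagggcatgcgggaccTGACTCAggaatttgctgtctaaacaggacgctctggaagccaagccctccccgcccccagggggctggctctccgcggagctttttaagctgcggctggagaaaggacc
Rcan1 outer start, chr16:92466170-92466419: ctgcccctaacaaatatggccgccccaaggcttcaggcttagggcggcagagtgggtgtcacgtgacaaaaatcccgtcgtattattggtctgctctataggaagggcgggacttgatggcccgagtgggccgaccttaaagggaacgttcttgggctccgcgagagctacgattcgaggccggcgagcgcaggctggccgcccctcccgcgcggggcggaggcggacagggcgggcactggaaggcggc
Nfatc2 outer start, chr2:168601658-168601907: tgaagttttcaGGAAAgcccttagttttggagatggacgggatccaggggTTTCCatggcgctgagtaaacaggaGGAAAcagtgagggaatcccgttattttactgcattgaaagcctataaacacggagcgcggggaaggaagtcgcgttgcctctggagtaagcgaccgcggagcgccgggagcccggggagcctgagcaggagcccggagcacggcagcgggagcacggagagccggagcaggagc
Nfatc2 inner start, chr2:168590366-168590615: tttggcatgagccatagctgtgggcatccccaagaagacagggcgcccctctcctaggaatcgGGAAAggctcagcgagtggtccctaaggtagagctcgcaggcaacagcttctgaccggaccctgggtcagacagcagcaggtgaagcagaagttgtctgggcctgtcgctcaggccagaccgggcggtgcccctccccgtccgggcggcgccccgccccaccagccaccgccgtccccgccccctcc

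The Rcan1 window at the inner start, where the transcript Rcan1-201 begins, held 3 GGAAA cores, 1 TGANTCA and 1 TGACGTCA, and the window at its outer start held 0 of each. The outer Nfatc2 window held 3 GGAAA cores and the inner one 1. At least 1 core stood in 6 of the 10 windows, among them those of Nfat5 with 2 and Ppp3cb with 3, and in 55.6% of 32851 RefSeq windows of the same length, while 6.39% of all windows held 3 or more. TGANTCA was in 6.75% of all windows and TGACGTCA in 1.55%, and among the 10 windows each was found in the inner Rcan1 window only. A match of letters is no evidence of binding, and the deposited counts are per gene, so they do not divide the reads between start sites.

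**Figure D1:**
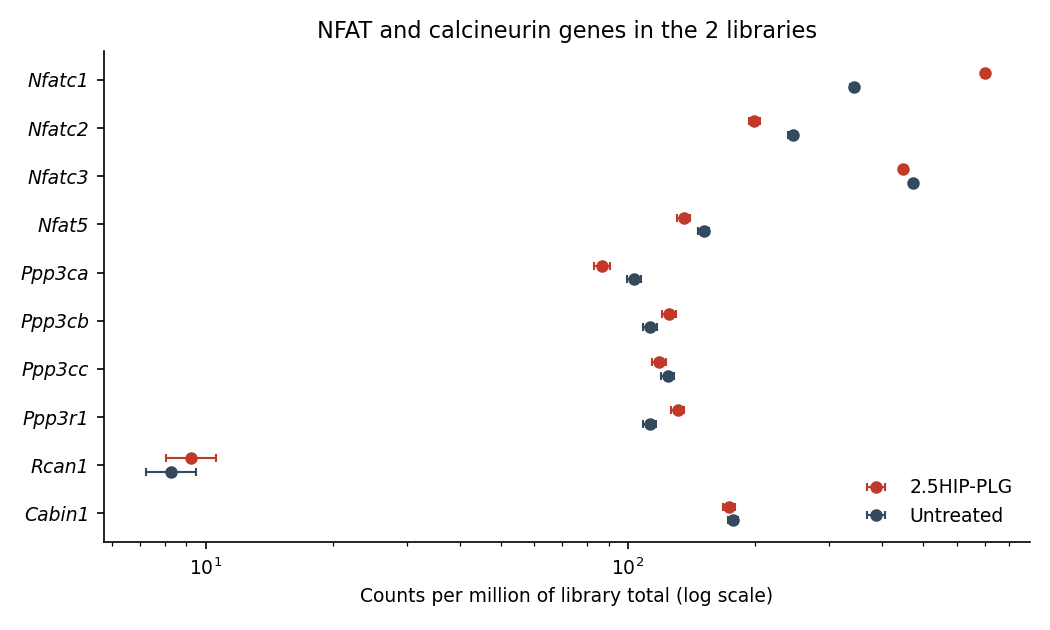
Level of each gene in the 2 libraries, in CPM on a log axis; bars are exact 95% Poisson intervals and cover counting error only. Nfatc1 stands at 699.7 CPM after 2.5HIP-PLG and 343 without, and Rcan1 below 10 in both.

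Nfatc1 encodes the NFAT factor that is itself induced in activated T cells, through a start site that NFAT proteins bind. The gene lies on chromosome 18 (80606205 to 80713071, minus strand, GRCm38). Its count was 15800 after 2.5HIP-PLG and 8931 without treatment, or 699.7 and 343 CPM. Its ratio of 2.04 had a counting interval of 1.99 to 2.09, and the log2 ratio of 1.03 was above that of 97.1% of measured genes. Its count was the 175th largest after 2.5HIP-PLG and the 513th largest without treatment. Over all measured genes, 400 had a higher log2 ratio than Nfatc1. Of 297 measured genes with a count sum at least that of Nfatc1, itself included, 3 were higher and 10 lower, and none but Nfatc1 had a ratio as high. Both limits of that comparison were taken from Nfatc1 after its values were seen, so it lends the gene no support. No annotated exon of another gene overlapped those of Nfatc1, and its counts were whole numbers. The annotation lists 7 transcripts of Nfatc1, and the short and long forms that the gene is known to make are not separated in these counts.

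Nfatc2 encodes the NFAT factor that is present in resting T cells before stimulation, and which has been linked to anergy. The gene lies on chromosome 2 (168476410 to 168601657, minus strand). It had 4494 counts after 2.5HIP-PLG and 6397 without, or 199 and 246 CPM. The untreated library was the higher one, with a ratio of 0.810 (0.780 to 0.842) that falls short of 1.5-fold. At a threshold of 1.2-fold, Nfatc2 was the single gene of the 10 called lower and Nfatc1 the single one called higher. By that rule 17.5% of all measured genes were lower, 12.7% higher and 30.2% either, and 2 of the 10 genes were called, which is not above that share.

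Nfatc3, a factor of thymocytes and mature T cells, lies on chromosome 8 (106058840 to 106130537, plus strand). It had 10141 counts after 2.5HIP-PLG (449 CPM) and 12325 without (473 CPM), the largest NFAT count of the untreated library. Its ratio of 0.949 (0.924 to 0.974) was close to 1, although the interval left out 1. The counts of Nfatc3 were not whole numbers, which means that some reads were divided among genes, and its exons share 219 bases with Esrp2 on the opposite strand, which had 6 and 19 counts.

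Nfat5, the osmotic stress factor, lies on the same chromosome 8 (107293470 to 107379517, plus strand). Its counts were 3058 after 2.5HIP-PLG and 3936 without, and the ratio was 0.896 (0.854 to 0.939). It was thus lower by less than Nfatc2 and by more than Nfatc3. Nfatc4, the family gene outside the 10 and known from tissues other than T cells, had 1 count and 0 counts.

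**Figure D2:**
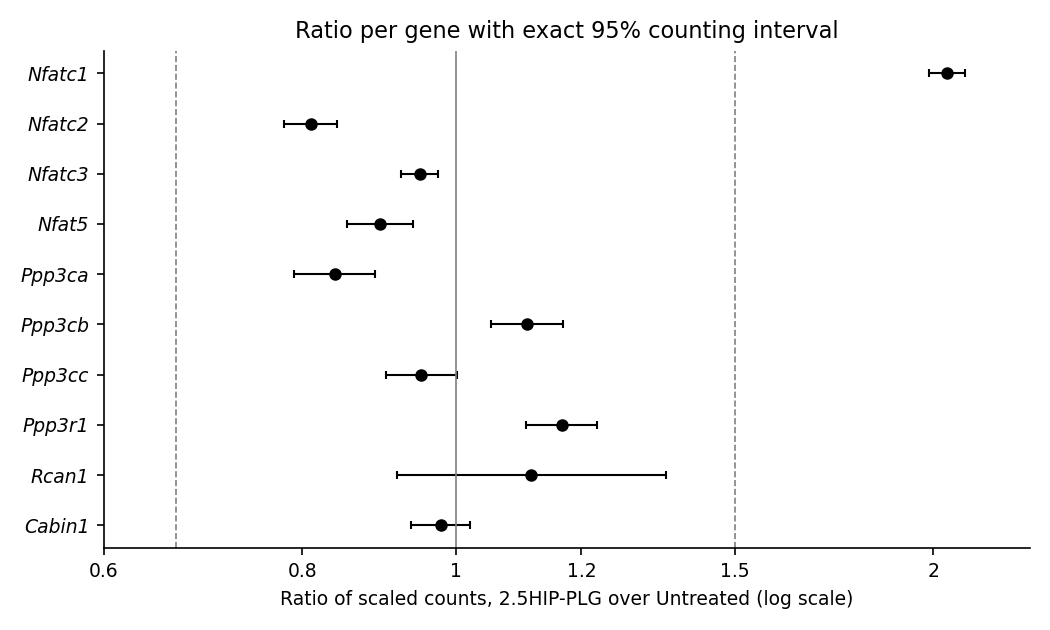
Ratio of scaled counts, 2.5HIP-PLG over untreated, for each gene on a log axis, with exact 95% counting intervals; the solid line is at 1 and the dashed lines mark 1.5-fold in each direction. Nfatc1 at 2.04 is the single gene beyond a dashed line.

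The share of each gene within the NFAT family needs no scaling between libraries. Together the 4 NFAT genes had 33493 counts in the treated library and 31589 in the other, which is a ratio of 1.22 (1.204 to 1.242). Without Nfatc1 the sum of the other 3 had a ratio of 0.900 (0.883 to 0.918). Of the NFAT counts, Nfatc1 made up 28.3% in the untreated library (27.8 to 28.8, exact binomial) and 47.2% after 2.5HIP-PLG (46.6 to 47.7). Nfatc2 made up 13.4% and 20.3%, Nfatc3 30.3% and 39.0%, and Nfat5 9.13% and 12.5%, each lower after 2.5HIP-PLG. The leading NFAT transcript by count was therefore Nfatc3 in the untreated library and Nfatc1 after 2.5HIP-PLG. Per kilobase of annotated exon, Nfatc1 led in both libraries, with 59.2% and 39.0% of the family.

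Pairs of NFAT genes were set against each other by the odds ratio of their counts, with an exact conditional interval. There were 3.52 counts of Nfatc1 for each of Nfatc2 after 2.5HIP-PLG and 1.40 without, an odds ratio of 2.52 (2.40 to 2.64). Against Nfatc3 the counts of Nfatc1 stood at 1.56 and 0.725, an odds ratio of 2.15 (2.07 to 2.23). Against Nfat5 the odds ratio was 2.28 (2.16 to 2.40). The 3 pairs without Nfatc1 differed far less. The odds ratio of Nfatc2 to Nfatc3 was 0.854 (0.815 to 0.895), that of Nfatc2 to Nfat5 was 0.904 (0.851 to 0.961), and that of Nfatc3 to Nfat5 was 1.06 with a lower bound of 1.003. All 6 intervals left out 1.

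**Figure D3:**
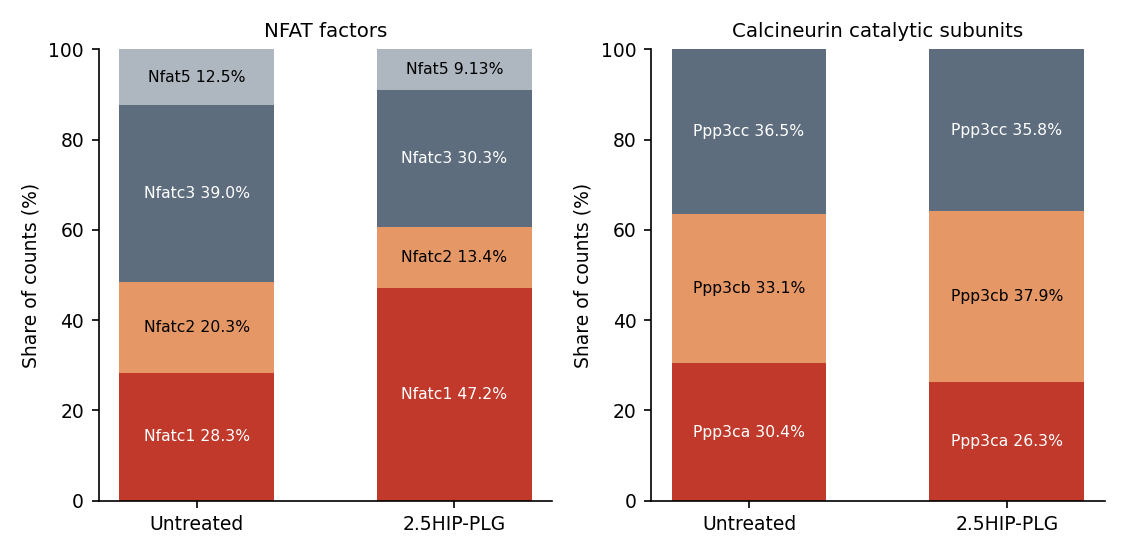
Share of counts in each library for the 4 NFAT genes (left) and the 3 calcineurin catalytic subunit genes (right), in percent of the family's counts. Nfatc1 takes 47.2% of NFAT counts after 2.5HIP-PLG against 28.3% without, whereas the catalytic subunits shift by less than 5 points, Ppp3cb by 4.75.

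Calcineurin is a pair of a catalytic and a regulatory subunit. Ppp3ca encodes the alpha form of the catalytic subunit and lies on chromosome 3 (136670124 to 136937727, plus strand). Its counts were 1961 after 2.5HIP-PLG and 2695 without, and the ratio was 0.839 (0.791 to 0.890). It was the lowest of the catalytic subunit genes by count in both libraries and the one with the lowest ratio. Ppp3cb, which encodes the beta form, a main catalytic form in lymphocytes, lies on chromosome 14 (20499364 to 20546573, minus strand). It had 2823 and 2937 counts, a ratio of 1.11 (1.05 to 1.17), and so was slightly higher after 2.5HIP-PLG. Ppp3cc, the gamma form, best known from testis, lies on the same chromosome (70217865 to 70289471, minus strand). It had 2670 and 3236 counts and a ratio of 0.951 (0.904 to 1.002), an interval that held 1.

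The 3 catalytic genes together had 7454 and 8868 counts, a ratio of 0.969 (0.940 to 0.9996). Within them Ppp3ca made up 26.3% after 2.5HIP-PLG and 30.4% without, Ppp3cb 37.9% and 33.1%, and Ppp3cc 35.8% and 36.5%. By count Ppp3cb led after 2.5HIP-PLG and Ppp3cc without. Per kilobase of annotated exon, Ppp3cc led in both libraries, with 63.4% after 2.5HIP-PLG and 64.2% without, against 22.7% and 19.8% for Ppp3cb. The exon lengths used were 2985 bases for Ppp3cc, 8809 for Ppp3cb and 9981 for Ppp3ca. They may overstate the lengths in use, so the order per kilobase is uncertain. The odds ratio of Ppp3ca to Ppp3cb was 0.757 (0.700 to 0.819), that of Ppp3ca to Ppp3cc 0.882 (0.815 to 0.954), and that of Ppp3cb to Ppp3cc 1.16 (1.08 to 1.25). Each of these 3 intervals left out 1, and each was nearer to 1 than those of the pairs with Nfatc1.

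Ppp3r1 encodes the calcium-binding regulatory subunit that the catalytic forms share. It lies on chromosome 11 (17159263 to 17200375, plus strand) and had 2963 counts after 2.5HIP-PLG and 2930 without. Scaled to library totals the ratio was 1.17 (1.11 to 1.23), which is the second highest of the 10 genes. Its exons share 462 bases with Wdr92 on the same strand, which had 329 and 361 counts, so reads there may belong to either gene. Ppp3r2, the testis form of the regulatory subunit, had 0 counts in both libraries, which allows up to 0.133 and 0.115 CPM if 3 counts are taken as the limit.

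The genes for the calcineurin inhibitors differed little. Rcan1 encodes regulator of calcineurin 1, a feedback inhibitor, and lies on chromosome 16 (92391953 to 92470867, minus strand). It had 209 counts after 2.5HIP-PLG and 216 without, or 9.26 and 8.30 CPM. The ratio of 1.12 had an interval of 0.918 to 1.36 that held 1. Its relative Rcan3 had 487 and 586 counts (0.958, 0.848 to 1.08), and Rcan2 had 0 in both libraries. Cabin1 encodes a nuclear protein that binds calcineurin and also holds MEF2 factors inactive, and lies on chromosome 10 (75646112 to 75764341, minus strand). It had 3922 and 4622 counts, with a ratio of 0.978 (0.937 to 1.02).

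Levels between genes were compared per kilobase of annotated exon, in CPM. After 2.5HIP-PLG, Nfatc1 led at 93.7 CPM per kilobase and was followed by Ppp3r1 (40.7), Ppp3cc (39.6) and Nfatc3 (38.3), whose neighbouring counting intervals overlapped. Nfatc2 (18.8), Cabin1 (14.3), Ppp3cb (14.2), Ppp3ca (8.70), Nfat5 (7.37) and Rcan1 (3.0) came after, and among these only the intervals of Cabin1 and Ppp3cb overlapped. In the untreated library Nfatc1 led by less, at 45.9 against 41.6 for Ppp3cc, 40.4 for Nfatc3 and 34.9 for Ppp3r1, and the other 6 genes came in the same order as after 2.5HIP-PLG. The exon length is the union over all annotated transcripts and may overstate the length in use, more so for Nfat5 (18378 bases) than for Ppp3cc (2985 bases).

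**Figure D4:**
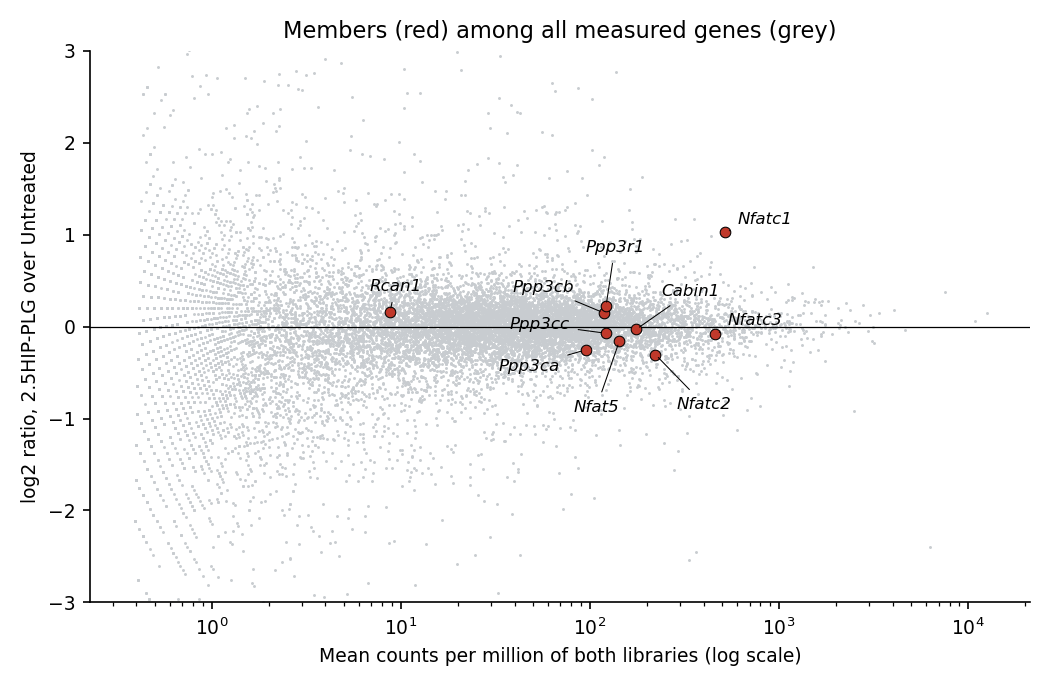
Log2 ratio of 2.5HIP-PLG over untreated against mean CPM of both libraries (log axis) for the measured genes, with the 10 NFAT and calcineurin genes in red; 93 genes beyond 3 log2 units are not drawn. Nfatc1 at a log2 ratio of 1.03 stands apart from the other 9, which lie between -0.30 and 0.22.

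The genes around NFAT were described from lists chosen with earlier results of these data known, so their counts do not stand as independent evidence. The count of each list is to be read beside the 5.15% higher and 9.7% lower of all measured genes. Of 17 genes of calmodulin and calcium release, 1 was higher, 0 were lower and 16 were neither (median log2 ratio -0.10). The higher one was Orai1, the pore of the calcium channel that feeds calcineurin, with 1709 and 1136 counts (1.73, 1.61 to 1.87). The calcium sensors of the endoplasmic reticulum that open this channel parted, with Stim2 at 1.47 (1.40 to 1.55) and Stim1, added after its value was seen, at 0.810 (0.774 to 0.848). Orai2 (0.737, 0.705 to 0.769) and Plcg1, the phospholipase that starts calcium release (0.751, 0.730 to 0.774), were below 1. None of 13 measured genes of NFAT kinases and nuclear export was called (median 0.01). Among them Csnk1e, a casein kinase 1 gene, had a ratio of 0.709 (0.639 to 0.785) and Gsk3b, a kinase that returns NFAT to the cytoplasm, 0.829 (0.787 to 0.873). The drug-binding partners of calcineurin were also neither, with Fkbp1a, the target of FK506, at 1.22 (1.16 to 1.27) and Ppia, the target of cyclosporin, at 1.04 (1.02 to 1.06).

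The AP-1 and other partners with which NFAT proteins share DNA sites divided, with 3 of 15 higher, 3 lower and 9 neither (median -0.19). Fosb (2.27-fold, 2.14 to 2.41), Jun (1.82-fold, 1.75 to 1.89) and Batf3 (1.89-fold, 1.28 to 2.86) were lower after 2.5HIP-PLG, and Junb, at 0.681 (0.665 to 0.697), was just short of the threshold. Irf4, which binds with BATF and AP-1, was higher (3.38, 3.18 to 3.603), as were Batf (1.599, 1.49 to 1.71) and Maf (1.61, 1.55 to 1.67), these last named after their values were seen. The library with more Nfatc1 had less Jun and Fosb and more Batf, while Jund was neither (0.932, 0.907 to 0.958). Fos (0.720, 0.686 to 0.756) and Fosl2 (0.679, 0.583 to 0.789), added after their values were seen, were below 1 but also neither. Whether these differences are linked was not tested, and cannot be with 1 library per group.

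Genes known as NFAT targets were listed apart as those of anergy and exhaustion and those of cytokines and activation. Over all measured genes 5.15% were higher and 9.7% lower. Among 20 genes tied to anergy and exhaustion, 15 were higher and 0 lower (median log2 ratio 1.27), led by Lag3 (20.8, 18.6 to 23.4), Egr2 (8.38, 7.27 to 9.69), Tox (6.83, 6.37 to 7.34) and Pdcd1 (5.58, 5.17 to 6.02). Many of these were known to be high in these libraries when the list was made, so the number called follows in part from that choice. The difference between this list and the next is for the same reason no result about NFAT. Among 12 measured cytokine and activation genes that NFAT drives with AP-1, 3 were higher, 2 were lower and 7 met neither rule. The list's median was -0.15, and 0.07 over those with a count sum of at least 100. Il21 (13.5, 11.4 to 16.1), Ccl3 (6.95, 5.80 to 8.39) and Ccl4 (5.83, 4.67 to 7.33) were higher. Csf2 was lower on 27 and 59 counts, too few for a minimum count sum of 100, as was Cd40lg, the ligand of CD40 on B cells (1.55-fold, 1.44 to 1.66), named after its value was seen. Il2, the classical NFAT target, had 13 and 19 counts, too few to tell a difference (0.789, 0.358 to 1.68), and Ifng had a ratio of 0.963 (0.906 to 1.02).

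For Nfat5, a list of 10 osmotic stress genes that includes Nfat5 itself had 9 measured, of which 2 were higher, 2 lower and 5 neither (median -0.16). Aqp1, a water channel gene with 84 and 53 counts, and Slc5a3, the myo-inositol transporter gene (1.59, 1.39 to 1.83), were higher. Sgk1, a salt-responsive kinase gene (1.94-fold, 1.83 to 2.05), and Hspa1b, a heat shock gene with a near-identical copy (1.58-fold, 1.51 to 1.66), were lower. For Cabin1, a list of 12 genes held MEF2 factors, histone deacetylases and others such as Hira, Ubn1 and Asf1a. Of these 11 were measured, of which 1 was higher, 1 lower and 9 neither (median -0.07). Hdac7 was higher (1.52, 1.47 to 1.58), and Mef2c was lower on 19 and 42 counts (1.92-fold, 1.09 to 3.49), a call that was lost with a 99% interval and with a minimum count sum of 100.

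**Figure D5:**
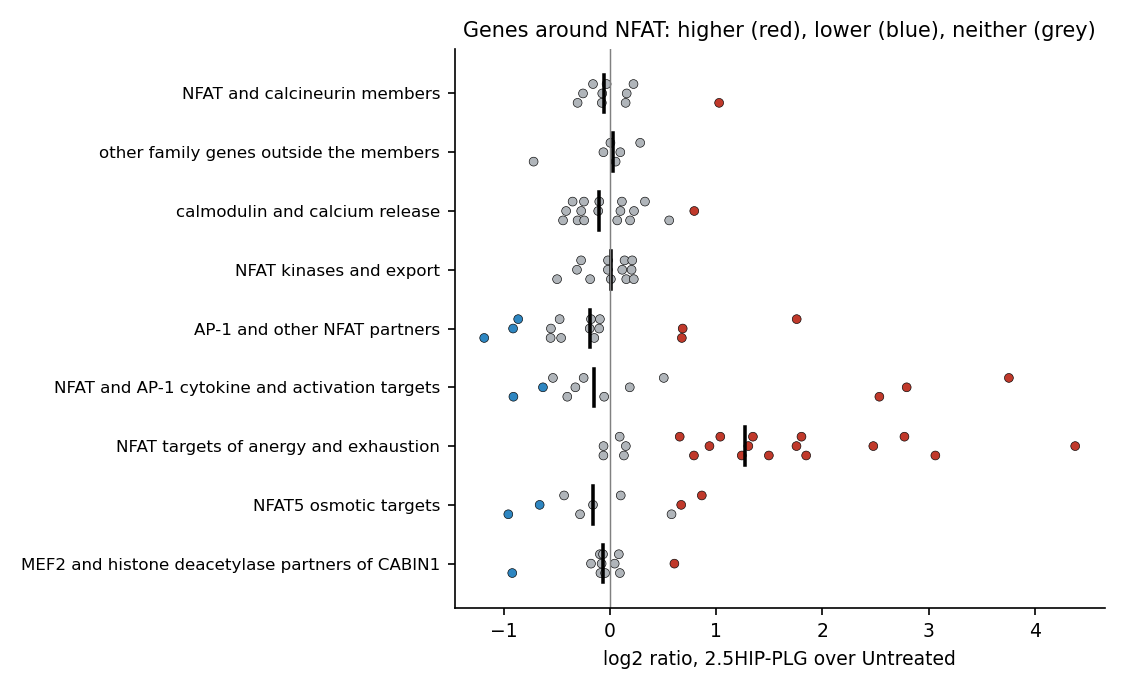
Log2 ratio of 2.5HIP-PLG over untreated for each measured gene of the 10 NFAT and calcineurin genes and of the lists of genes around them; black bars are list medians, red points were higher by the 1.5-fold rule, blue lower and grey neither. The NFAT and calcineurin genes centre near 0 with Nfatc1 apart at 1.03. The anergy and exhaustion list, many of whose genes were known to be high when it was made, has the highest median, 1.27.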

How the data were processed

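The deposited matrix holds expected counts per gene, 1 column per library. Most values were whole numbers and the column totals differ, so the values were taken as not scaled. The submitters' processing notes name STAR, RSEM 1.3.1 and the build GRCm38. The annotation, the filters and the use of strand are not stated there, so overlapping genes are treated as uncertain. Values that were not whole made up 11.1% and 11.8% of rows. RNA was extracted with an RNeasy Plus kit and libraries were made with a NuGen mRNA kit, per the labels' protocols. As the injection is described in the protocol of both samples, groups were taken from the treatment label.

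Counts were rounded and divided by column totals. Intervals were exact (Clopper-Pearson for ratios and shares, conditional for odds ratios) and cover counting error only, as each group has 1 library. No molecular identifiers are described, so repeated reads of the same molecule could not be set apart and the intervals may be too narrow. For median log2 ratios 0.5 counts were added. Scaling alternatives were TMM and upper quartile of edgeR 4.0.16 and size factors of DESeq2 1.42.0, in R 4.3.3. Exon lengths and coordinates came from GENCODE M21 on GRCm38, which holds 54409 of the row IDs. Python 3.11.15, numpy 2.4.6, pandas 2.3.3, scipy 1.17.1 and matplotlib 3.10.9 were used, and the calculation was tested on simulated counts. The genes and lists were chosen with earlier results of these data known. Named were all 10 genes, and from each list the measured genes with the 4 largest absolute log2 ratios, the one with the largest count sum and some preset genes; not all of these are printed.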

Additional observations from a re-analysis of the deposited data

How the results depend on the processing

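No paired analysis was possible because each group has 1 library, and for the same reason no library could be left out. Over the scaling alternatives and unrounded counts, the ratio of Nfatc1 ranged from 2.02 to 2.06, that of Nfatc2 from 0.801 to 0.817 and that of Rcan1 from 1.10 to 1.13, and none of the 10 genes changed its call. The interval of Ppp3cc held 1 with column totals but left it out with upper quartile scaling (0.941, 0.894 to 0.991) and with totals without mitochondrial and ribosomal RNA genes (0.947, 0.900 to 0.998). At 1.2-fold Nfatc2 (0.810) was called, with 1762 of all measured genes higher and 2436 lower. At 2-fold 387 were higher and 808 lower, and Nfatc1 stayed among the higher. With a count sum of at least 100, 473 were higher and 748 lower, against 716 and 1348 with the minimum of 20, as fewer genes were tested. There the median log2 ratio of the cytokine and activation list went from -0.15 to 0.066 and that of the AP-1 list from -0.19 to -0.32. Shares per kilobase kept the direction of shares of counts for all 7 NFAT and catalytic subunit genes. Depth limits Rcan1 most, whose interval spans 0.918 to 1.36.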
